A study of Mus musculus with 2 samples.

Results

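Connexins are the membrane proteins of gap junctions, and 9 connexin genes of the mouse (Gja1, Gja3, Gja4, Gja5, Gjb2, Gjb6, Gjc1, Gjd2 and Gjd3) are described here in the embryonic heart. They were chosen by name, and all 9 were found by gene identifier among the 43346 mouse genes of the deposited tables, which list 20 connexin genes in all. Total RNA was sequenced from hearts of B6NCrl mice at embryonic day 11.5, in 2 libraries that the labels number replicate 1 and replicate 2. Both came from pools of male and female embryos described as healthy, with no treatment or transgene named. Replicate 1 pooled 109 embryos, and how many went into replicate 2 is not stated. The biosample records are separate and share 1 donor identifier, so the spread between the libraries may be partly or wholly technical. The single group allows no comparison between conditions. What can be read is the level of each connexin, their order, and how far the pools differed.

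Connexins assemble as hexamers, called connexons or hemichannels, in the plasma membrane. Connexons of neighbouring cells dock head to head and form a channel that passes ions and small metabolites. In the heart these channels carry the action potential from myocyte to myocyte, and regions that conduct at different speeds are known for different connexins. Connexin 43, encoded by Gja1, is the main form of working myocardium. Connexin 40, from Gja5, is known from atria, trabeculae, the fast conduction system and arterial endothelium, and connexin 45, from Gjc1, from the early heart tube and the nodes. Connexin 37, from Gja4, is chiefly a vascular endothelial form. Connexin 46 (Gja3) is best known from the lens, connexins 26 and 30 (Gjb2 and Gjb6) from epithelia, the inner ear and glia, and connexin 36 (Gjd2) from neurons.

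The docking region is known as a conserved part of connexins, and its bases are shown to let the members be compared. The stretch below codes for the part of the first extracellular loop that holds its 3 conserved cysteines, which are known to form disulfide bonds with those of the other loop. Each line gives 42 coding bases on the sense strand from GENCODE M21 transcripts, 5′ to 3′, with the cysteine codons in capitals.

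Gja1: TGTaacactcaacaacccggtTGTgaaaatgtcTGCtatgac
Gjc1: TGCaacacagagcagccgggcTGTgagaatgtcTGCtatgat
Gja5: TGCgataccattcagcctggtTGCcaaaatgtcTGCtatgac
Gja3: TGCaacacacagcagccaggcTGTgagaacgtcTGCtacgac
Gjb2: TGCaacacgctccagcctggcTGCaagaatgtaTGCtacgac
Gjb6: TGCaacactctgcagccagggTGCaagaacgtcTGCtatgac
Gjd2: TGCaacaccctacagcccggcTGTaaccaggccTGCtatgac

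In Gja1 the stretch lies at chr10:56387706-56387747 (GRCm38, plus strand), in the single coding exon of Gja1-201, bases 160 to 201 of the coding sequence. The codon pattern, loosened at 1 position after a first search missed Gjd2, was found once in 8 of the 9 members. It had no match in Gjd3. The pattern also fixes codons other than those of cysteine, so this does not show that Gjd3 lacks the cysteines. Compared with Gja1, the 6 other sequences shown were identical at 30 to 33 of 42 bases. Over whole coding sequences, the 36 pairs of members were 51.9% to 75.7% identical at aligned bases, Gjb2 and Gjb6 being the closest pair. The longest exact run shared by the transcripts of any pair was 26 bases, between Gja1 and Gja4. Expected counts of all 9 genes were whole numbers, with no fractional reads. In 8 of the 9 genes the coding sequence lies in 1 exon, as is usual for connexins, and Gjd2 is the exception with 2.

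Gja1 was the highest connexin, followed by Gjc1, Gja5 and Gja4 at a level several times lower, and together these 4 genes held nearly all connexin transcripts. Levels are given in TPM, an abundance corrected for transcript length and scaled to the same total in each library, as mean ± SD over the 2 libraries. Of the 9 members, 5 reached 1 TPM in each library, and 30.8% of all mouse genes did. In bulk tissue, fewer cells of a type and less RNA per cell cannot be told apart.

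**Figure D1:**
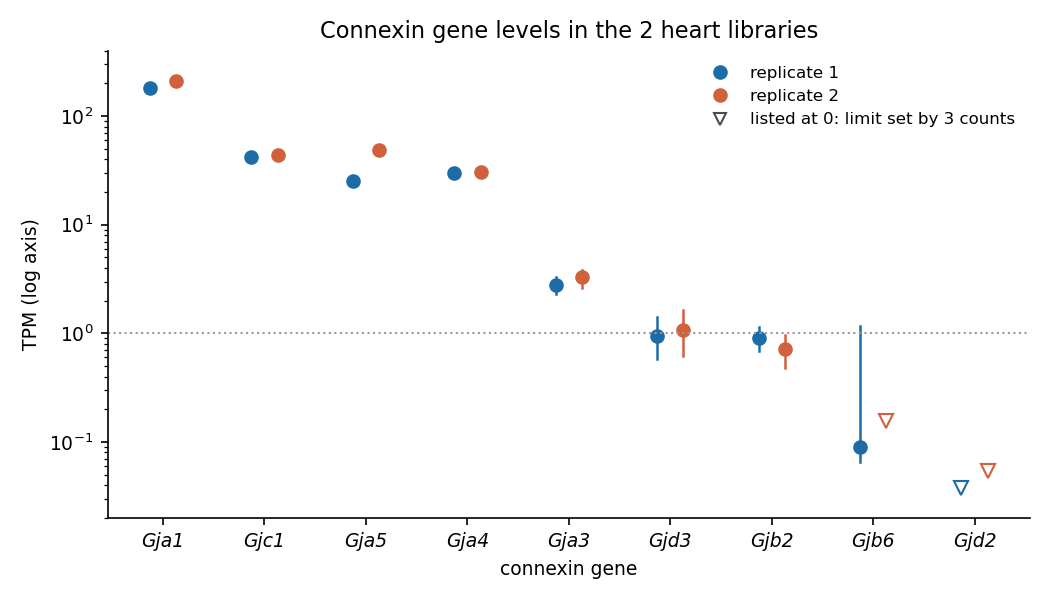
TPM of the 9 connexin genes in replicate 1 (blue) and replicate 2 (orange) on a log axis, with the authors' deposited interval of the posterior mean TPM as lines; open triangles mark genes listed at 0, drawn at the TPM that 3 counts would give, and the dotted line is 1 TPM. Gja1 stood above 180 TPM in both libraries, and Gja5 was the member whose points lay farthest apart among the 4 highest.

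Gja1, the gene of connexin 43 on chromosome 10 (56377330 to 56402513), had 180.8 TPM in replicate 1 and 210.06 in replicate 2, from 15510 and 12721 counts. Both values put it well above every other connexin, at rank 663 of the mouse genes by summed TPM (195 ± 20.7, n = 2). Its share of the summed TPM of all 20 connexin genes was 63.7% in replicate 1 and 61.9% in replicate 2. The files hold a single transcript for it, Gja1-201, whereas the later M21 annotation lists 8 transcripts of the gene and gives Gja1-201 2 exons.

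Gjc1, which codes for connexin 45 (chromosome 11, 102799579 to 102819700), had 41.67 and 44.14 TPM, from 2110 and 1528 counts. Its mean was 42.9 ± 1.75 (n = 2), and Gja1 lay 4.34-fold above it in replicate 1 and 4.76-fold in replicate 2. The ranges of Gja1 and Gjc1 did not overlap. Without length correction the distance was larger, the counts of Gja1 being 7.35 and 8.33 times those of Gjc1.

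Gja4, the gene of connexin 37 (chromosome 4, 127311421 to 127314039), had 29.87 TPM in replicate 1 and 30.67 in replicate 2, from 1352 and 980 counts. These values lay close together (30.3 ± 0.566, n = 2) and below those of Gjc1 in both libraries, by 1.40-fold and 1.44-fold. It has 1 transcript of 2 exons, unchanged in length between the annotation of the files and M21.

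Gja5, the gene of connexin 40 (chromosome 3, 96904693 to 97077416), had 25.15 TPM in replicate 1 and 48.30 in replicate 2, from 2104 and 2844 counts. More reads were assigned to it in the shallower library. Its mean of 36.7 ± 16.4 (n = 2) therefore stood for values that differed nearly as much as a doubling, and its range overlapped those of Gjc1 and Gja4. In replicate 1 Gja5 was the lowest of the 4, at 0.842 times Gja4. In replicate 2 it was second to Gja1, Gjc1 being at 0.914 times its level. Gja1 exceeded Gja5 7.19-fold in replicate 1 and 4.35-fold in replicate 2. The place of Gja5 among the 3 genes below Gja1 thus rested on which library was read, while Gja1, Gjc1 and Gja4 kept their order in both.

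**Figure D2:**
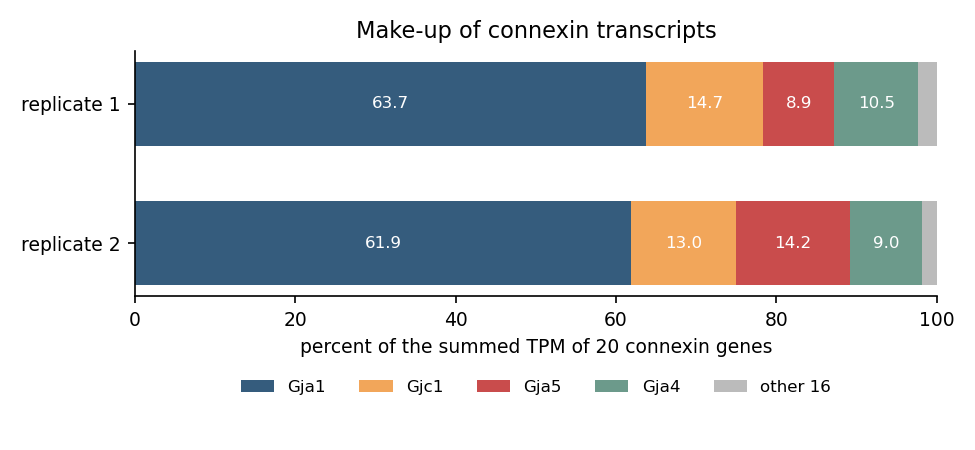
Percent of the summed TPM of 20 connexin genes held by Gja1, Gjc1, Gja5, Gja4 and the other 16 genes, 1 bar for each library. Gja1 takes 63.7% and 61.9%, and the share of Gja5 is 8.86% in replicate 1 and 14.2% in replicate 2.

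By subfamily, the 7 alpha connexins (Gja genes) held 85.1% ± 1.43 of connexin TPM and the 3 gamma connexins 14.7% in replicate 1 and 13.0% in replicate 2. The 6 beta connexins held 0.628% ± 0.267 and the 3 delta connexins 0.396% ± 0.0365 (n = 2). Gja1, Gjc1, Gja5 and Gja4 together reached 97.7% in replicate 1 and 98.2% in replicate 2. All 20 genes summed to 284 TPM in replicate 1 and 339 in replicate 2. With Gja5 left out the sums were 259 and 291, and the difference between the libraries went from 55.5 to 32.3 TPM.

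Below these 4, the levels dropped by about an order of magnitude. Gja3, which codes for the lens connexin 46 (chromosome 14, 57034460 to 57058100), had 2.81 and 3.29 TPM (3.05 ± 0.339, n = 2) from 116 and 96 counts. Gja4 lay 10.6-fold above it in replicate 1 and 9.32-fold in replicate 2, and the ranges were apart. The model of Gja3 in the files is 1548 bases long and that of M21 2766 bases, so the level rests on the shorter model. The lens markers Cryaa, Mip and Lim2 were listed at 0 in both libraries, and Crybb1 had 1 count in each.

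Gjd3, a delta connexin gene (chromosome 11, 98982180 to 98983016), had 0.95 and 1.08 TPM from only 20 and 16 counts. Its model is a single exon of 837 bases with a coding sequence of 834, so it holds almost no untranslated sequence and its level rests on coding reads. Gjb2, encoding connexin 26 (chromosome 14, 57098600 to 57104702), had 0.91 and 0.71 TPM from 60 and 33 counts. The order of these genes was the same in both libraries, with 1.04-fold and 1.52-fold between them. Their ranges over the libraries did not overlap, but the authors' deposited intervals of the posterior mean do, at 0.58 to 1.40 for Gjd3 and 0.686 to 1.14 for Gjb2 in replicate 1, so these neighbours were not separable at this depth.

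Gjb6, the gene of connexin 30 (chromosome 14, 57123303 to 57133611), had 5 counts and 0.09 TPM in replicate 1 and was listed at 0 in replicate 2, where 3 counts would give 0.154 TPM on the shorter effective length listed for the gene in that library. The authors' deposited posterior means were higher, at 0.49 and 0.56 TPM, of which 0.34 and 0.47 stood on Gjb6-203, a processed transcript with 0 counts in both libraries. Gjd2, the neuronal connexin 36 gene (chromosome 2, 114009601 to 114013619), was listed at 0 in both libraries. A limit of 3 counts for each library corresponds to 0.0378 TPM in replicate 1 and 0.0536 in replicate 2, so Gja1 was at least 4781-fold and 3921.5-fold higher. An M21 antisense gene, A530058N18Rik, shares 57 exon bases with Gjd2-201 and had 4.34 and 18.13 counts. The strand setting is not stated, so reads from the shared bases cannot be told apart. All 5 neuronal markers reached 1 TPM in each library, where 30.8% of all mouse genes did, with summed TPM of 27.9 and 29.7. These limits and all intervals of counts cover counting error only.

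The members on chromosome 14 are neighbours and differed in level. Gja3 and Gjb2 are 40499 bases apart and Gjb2 and Gjb6 18600 bases apart, on the same strand, at mean TPM of 3.05, 0.81 and 0.045.

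The other 11 connexin genes were all below 1 TPM in both libraries. Gjb5 had 0.52 and 0.34 TPM, Gjb1 0.69 and 0.14, and Gjd4 0.10 and 0.35. Gje1 was listed at 0 in both. The pannexins, relatives of the invertebrate gap junction proteins that form single-membrane channels, were led by Panx1 at 15.56 and 12.82 TPM. Panx2 had 1.14 and 1.02, and Panx3 0.07 and 0.06. Panx1 was thus below each of the 4 highest connexins in both libraries.

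Of the members with 2 or more transcripts in the files and at least 20 counts, Gja5 and Gjc1, both had the same leading transcript in each library. Gja5-201, with 2 exons, held 97.1% and 96.8% of Gja5 TPM, and the 3-exon Gja5-202 the rest. Both start at base 97032416 of chromosome 3 in M21, from which the exon numbers and positions of transcripts are taken here. Gja5-201 alone had 24.42 TPM in replicate 1 and 46.74 in replicate 2 and carried the difference between the libraries. M21 lists 3 transcripts of Gja5 and extends the gene upstream to base 96904693, a part outside both transcripts of the files. The antisense genes at Gja5 in M21 share 0 exon bases with Gja5-201.

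Gjc1 was divided among 5 transcripts. Gjc1-201 held 73.2% of Gjc1 TPM in replicate 1 and 78.8% in replicate 2, followed by Gjc1-202 with 11.1% and 8.15%. Both have 3 exons and the same coding sequence of 1188 bases, but their annotated starts differ, at 102819179 and 102819700 on the minus strand of chromosome 11. Gjc1-203, which starts at 102804901, held 5.26% and 2.99%. The 3 coding forms together made up 89.8% ± 0.219 of the gene (n = 2). The remainder went to Gjc1-204, a processed transcript of 247 bases, and Gjc1-205, which retains an intron. TPM weighs such a short transcript strongly, as Gjc1-204 had only 11.49 and 10.35 counts.

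**Figure D3:**
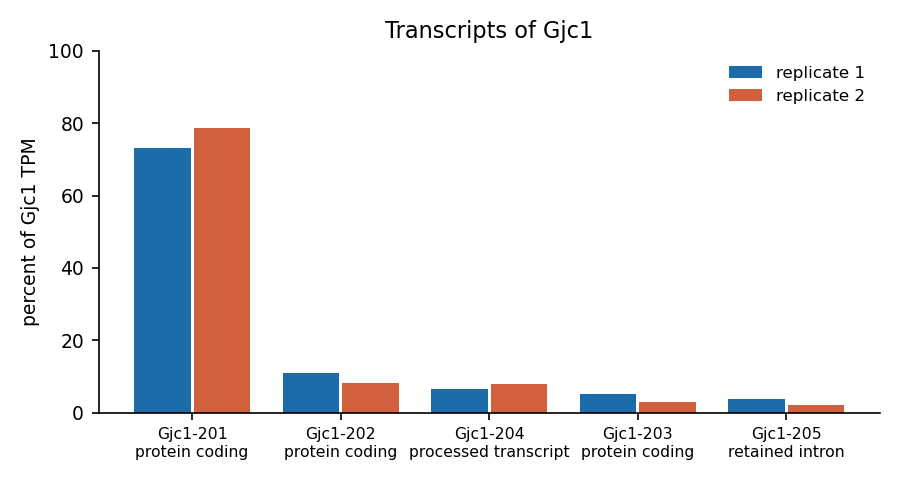
Percent of Gjc1 TPM in each of its 5 transcripts, with replicate 1 in blue and replicate 2 in orange. Gjc1-201 leads in both libraries with 73.2% and 78.8%, and the other 4 transcripts each hold 11.1% or less.

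The libraries were then set against each other gene by gene. Counts were scaled by TMM, a trimmed mean that equalises most genes, and the ratio of replicate 2 to replicate 1 was taken for genes with a summed count of 20 or more. There is 1 library on each side, so no test between them is given. Of the 7 members that passed this filter, 1 was 1.5-fold or more apart, where 14.7% of the 16621 genes tested were, 4.76% being higher in replicate 2 and 9.89% higher in replicate 1.

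Gja5 was that member, at 1.85-fold more in replicate 2 (exact 95% interval 1.75 to 1.96, from counting error alone). Genes with a higher ratio made up 2.21% of all those tested. Of the 4183 genes whose summed count lay within 2 times that of Gja5, 0.574% were 1.5-fold or more higher in replicate 2, and 5 had a higher ratio than Gja5. The other 6 members tested were less than 1.5-fold apart. On the log2 scale, the ratio of replicate 2 to replicate 1 was 0.17 for Gja1 (0.13 to 0.20), -0.01 for Gjc1 (-0.11 to 0.08) and -0.01 for Gja4 (-0.13 to 0.11). Gja3 was at 0.18 (-0.22 to 0.58), Gjd3 at 0.13 (-0.91 to 1.15) and Gjb2 at -0.40 (-1.07 to 0.23), with intervals that include 0. The members that did not pass the filter were Gjb6, with 5 counts in all, and Gjd2, with 0.

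**Figure D4:**
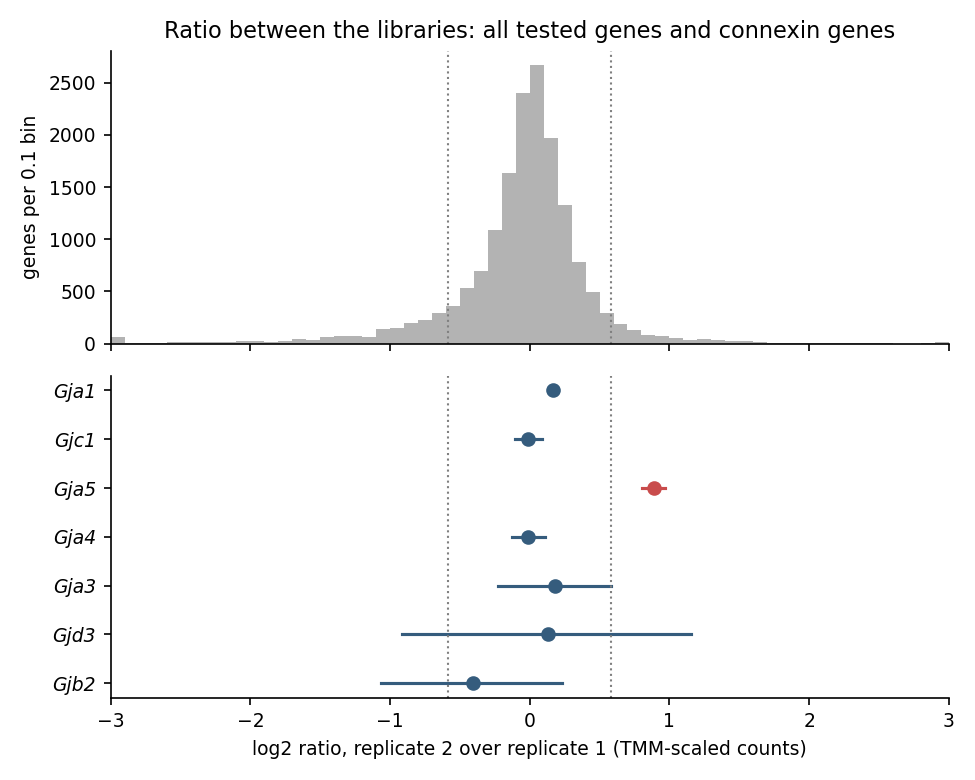
Top, number of tested genes by log2 ratio of replicate 2 to replicate 1 in bins of 0.1, with values beyond 3 in either direction put in the end bins. Bottom, the 7 connexin genes tested, with exact 95% intervals for counting error. The dotted lines mark 1.5-fold, and Gja5 is the only connexin shown beyond them, with a log2 ratio of 0.89.

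In the trabecular, cardiomyocyte, endothelial and arterial endothelial marker lists, no gene reached the ratio of Gja5. Atria and the fast conduction system, where Gja5 is also known, had no list of their own. Of the 5 trabecular markers, 0 were 1.5-fold or more apart, where 14.7% of all tested genes were. Their log2 ratios of replicate 2 to replicate 1 ran from -0.45 to 0.15, with summed TPM of 4994 and 5353. The 6 cardiomyocyte markers ranged from -0.45 to 0.47. The 7 markers of endocardium and endothelium ranged from -0.27 to 0.53 around a median of 0.19, with summed TPM of 216 and 259. Among 6 arterial endothelial markers, Sox17 was past 1.5-fold, at 3.60 TPM in replicate 1 and 2.79 in replicate 2, which is the opposite direction to Gja5. Every gene of these lists reached 1 TPM in each library. So did every gene of the neuron, hepatic and yolk sac, erythroid and macrophage lists, so this level does not single out the labelled tissue. The part of trabecular, cardiomyocyte and endothelial cells in the difference of Gja5 was not tested. In the list of the atrioventricular canal and sinus node, Isl1 was past 1.5-fold, also higher in replicate 1 (10.18 against 6.18 TPM).

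**Figure D5:**
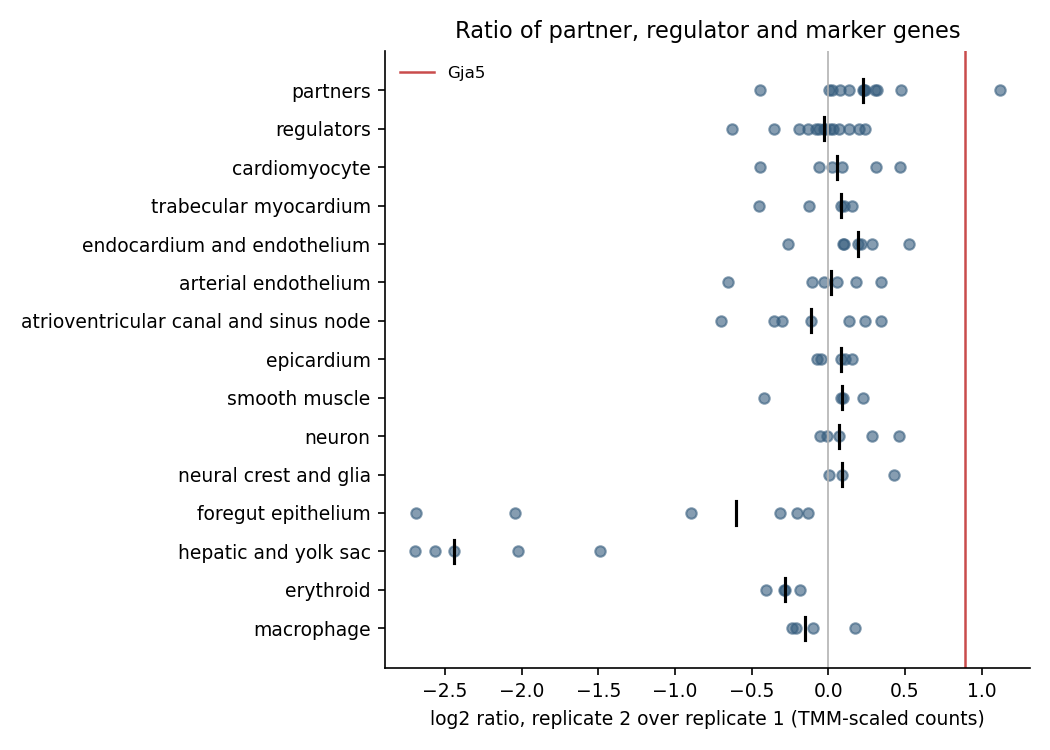
Log2 ratio of replicate 2 to replicate 1 for each tested gene of the partner, regulator and cell type lists (points), the median of each list (black bars) and Gja5 (red line, 0.89). Hepatic and foregut markers lie to the left, and the trabecular, cardiomyocyte and endothelial points lie left of the Gja5 line.

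The hepatic and yolk sac list and the foregut epithelium list differed more. In the neuron, neural crest and glia, erythroid and macrophage lists no tested gene was 1.5-fold or more apart, where 14.7% of all tested genes were. Among all tested genes 9.89% were 1.5-fold or more higher in replicate 1. All 5 hepatic and yolk sac markers were, with summed TPM of 182 and 34.3. Of 6 tested foregut epithelium markers, 3 were, namely Nkx2-1, Foxa2 and Epcam, and the summed TPM of the 7 listed was 68.2 and 57.9. Gjb1, which codes for connexin 32, the main connexin of hepatocytes, had 28 counts in replicate 1 and 4 in replicate 2, a 4.71-fold difference (1.79 to 20.0). Gjb5 had 24 and 11 counts, with an interval that includes 1 (0.751 to 3.60). The part of hepatic, yolk sac and foregut tissue in the counts of Gjb1, Gjb2 and Gjb5 was not tested. Gjd4 went the other way with 7 and 18 counts, 3.33-fold higher in replicate 2 (1.40 to 9.98), and these 3 genes are all that passed the filter among the 11 other connexins.

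Genes that act on connexins were expressed throughout. All 12 partners, which anchor, traffic or modify connexins, reached 1 TPM in each library. Of all mouse genes 30.8% did, and so did every gene of the neuron, erythroid and macrophage lists. The highest partners were Nedd4, a ubiquitin ligase known to bind connexin 43, at 408 and 493 TPM, and Ctnnb1 (beta-catenin) at 244 and 278. Mapre1, which binds the ends of growing microtubules, followed at 194 and 219. Src, a tyrosine kinase of connexin 43, was the lowest at 4.61 and 3.48. Of all tested genes 14.7% were 1.5-fold or more apart between the libraries, 4.76% being higher in replicate 2. Tjp1, which codes for the scaffold protein ZO-1 that binds the tail of connexin 43, was the 1 partner of 12 past 1.5-fold. It had 8.93 TPM in replicate 1 and 23.43 in replicate 2, from 1534 and 2437 counts. The TMM-scaled counts were 2.18-fold higher in replicate 2, and the TPM values lie farther apart than that.

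All 14 transcription factors and cofactors with known action on cardiac connexin genes reached 1 TPM in each library too, where 30.8% of all mouse genes did. Nkx2-5 and Gata4, activators of Gja5, had 115.34 and 117.03 TPM, and 106.44 and 119.36 TPM. Tbx20 followed at 56.89 and 45.44. Tbx2, a repressor of Gja1 and Gja5 in slowly conducting myocardium, was the lowest at 3.27 and 2.65. The activator Tbx5 had 23.46 and 24.81 TPM, and Tbx3, another repressor, 7.74 and 9.47. Hopx was the 1 gene of the 14 past 1.5-fold, at 14.54 TPM in replicate 1 and 9.62 in replicate 2. Among all tested genes, 9.89% were that much higher in replicate 1 and 4.76% in replicate 2.

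RefSeq (GRCm38.p6) promoter windows were found for 7 of the 9 members, Gjc1 and Gjd3 being without one. The 250 bases before the RefSeq start are shown for the 3 highest of them. These were taken because Gja1 and Gja4 each have 1 transcript in the files and both forms of Gja5 share a start in M21. The RefSeq starts of Gja1 (56377300) and Gja5 (97032402) lie upstream of their M21 transcript starts (56377330 and 97032416). The windows lie at chr10:56377050-56377299 (plus strand), chr3:97032152-97032401 (plus) and chr4:127314040-127314289 (minus). Capitals mark matches, on either strand, to any of 7 short motifs. For GATA factors the letters searched were AGATAA. For T-box factors they were TCACAC, and for NKX2-5 they were AAGTG. SP factors were searched by GGGCGG and the TATA box by TATAAA. The AP-1 letters were TGANTCA, and those of the E-box were CACGTG.

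Gja1: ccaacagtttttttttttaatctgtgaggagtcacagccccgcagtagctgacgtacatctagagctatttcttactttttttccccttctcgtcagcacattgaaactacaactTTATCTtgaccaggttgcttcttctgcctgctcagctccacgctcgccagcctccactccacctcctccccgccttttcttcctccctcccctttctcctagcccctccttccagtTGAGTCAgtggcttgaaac
Gja5: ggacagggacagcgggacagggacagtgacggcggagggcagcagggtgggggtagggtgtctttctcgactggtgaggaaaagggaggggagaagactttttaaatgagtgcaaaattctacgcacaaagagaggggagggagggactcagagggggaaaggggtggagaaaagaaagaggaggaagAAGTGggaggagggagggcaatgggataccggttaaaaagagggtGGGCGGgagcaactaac
Gja4: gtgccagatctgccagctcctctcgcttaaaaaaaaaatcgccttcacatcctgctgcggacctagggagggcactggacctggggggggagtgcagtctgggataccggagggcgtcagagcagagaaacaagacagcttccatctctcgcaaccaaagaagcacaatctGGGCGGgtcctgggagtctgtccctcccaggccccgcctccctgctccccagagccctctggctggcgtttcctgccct

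Positions are counted from the RefSeq starts. Gja1 had a GATA match at position -135 and an AP-1 match at -19, with motifs found in 9.99% and 6.75% of 32851 windows of the same length. Gja5 had an NKX2-5 match at -62, a pentamer that 40.7% of windows hold, and an SP match at -17 (32.7% of windows). Gja4 had an SP match at -79. None of the 3 windows held the T-box letters, which occur in 12.3% of windows. The matches do not overlap one another. CpG dinucleotides numbered 6 in Gja1, 7 in Gja5 and 9 in Gja4, near the median of 6 over all windows, and the other windows held 29 and 26 (Gja3, with a pair of starts), 18 (Gjb2), 5 (Gjb6) and 33 (Gjd2).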

How the data were processed

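Each library has a gene table and a transcript table on mm10 with annotation release M4, per the README texts deposited with them. Per the file headers, the authors deposited expected counts (estimated reads, not normalized), TPM scaled across mouse genes and all other rows alike, posterior means of TPM with intervals, and the percent of a gene's TPM in each transcript. Aligner, quantifier and strand setting: not given in the sources used here. Per the labels' protocols, RNA was extracted with mirVana, 10 ng entered each library, and a SmartSeq protocol is attached. Effective lengths were 99 bases below gene length (median).

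Replicate 1 held 37617442 expected counts and replicate 2 27642765, and 91.6% and 91.4% were on mouse genes; spike-in and other rows were left out of scaling. A chi-square of 24.8 per gene separates the libraries, so they are not copies. Symbols came from GENCODE M21 for 98.0% of mouse genes. Counts were rounded and scaled by TMM (edgeR 4.0.16, R 4.3.3), with 0.5 added for ratios, and intervals are exact (Clopper-Pearson) from scipy 1.17.1. No test was made, since 2 libraries of 1 group allow no p below 0.5 in an exact sign-flip test, and separate cultures or litters are not named. On simulated data for the ratio over 16621 genes, 95 of 100 genes changed 2-fold were recovered and 641 of 16421 unchanged genes passed 1.5-fold. Between the real libraries 2435 of 16621 genes passed 1.5-fold. The simulated spread therefore need not match the real one, and these figures may overstate how well the ratio performs.

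Alternatives were posterior means, counts, other scalings, filters and thresholds, and each library alone. All 9 members were named. Of the partner and regulator lists, the 3 highest, the lowest and any past 1.5-fold were named; Tbx5, Tbx3 and the single marker genes named were added after their values were seen. The cysteine codon pattern was loosened at 1 position after a first search missed Gjd2. The members and lists were chosen with earlier results of these data known. Some genes and 1 sequence are not reported here.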

Additional observations from a re-analysis of the deposited data

How the results depend on the processing

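The count of members at 1 TPM or more (5) was 5 with posterior means, 7 at a threshold of 0.5 TPM, 6 with TPM over mouse genes alone, and 5 to 6 in single libraries, Gjd3 being the gene near the limit. The share of Gja1 was 62.8% of connexin TPM and 71.1% of connexin counts, where length is not corrected and Gja1 is a longer gene than Gjc1 and Gja4. It was 61.9% to 63.7% in single libraries. Of 8 neighbouring pairs in the order of levels, 5 had ranges over the 2 libraries that did not overlap, and 5 to 6 did under the alternatives. The 5 include Gjd3 and Gjb2, whose deposited intervals overlap. The number of members past 1.5-fold between the libraries (1) was 2 without the filter on low counts, which admits Gjb6, and 0 at 2-fold. Gja5 had a log2 ratio of 0.89, and 0.88 to 0.94 under DESeq2 size factors, total counts and TPM. Over the 7 members tested, Gja5 included, 20 of 21 ratios stayed within their counting interval. Over all 9 members, 9 of 18 levels moved by more than 1 SD. Rescaling to mouse genes alone raised Gja1 to 234 TPM, because rows other than mouse genes also hold TPM. Low counts limit Gjd3, Gjb2 and Gjb6.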
